A study of Mus musculus with 24 samples.

Results

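Stromal cells of the mammary gland were compared between mice lacking Snai2 and wild-type (WT) mice. The members are the 3 arrays labelled null stromal and the 3 labelled WT stromal, 6 of the 24 arrays of the series, chosen by their labels alone and described across 12549 genes. All arrays hold total RNA from female mammary glands, hybridised to Illumina bead arrays. WT mice were SNAI2+/+ and null mice SNAI2 LacZ/LacZ, that is, homozygous for a LacZ allele, and the labels name no Cre or second allele. Stromal, basal and luminal cells had been separated by surface CD49f and Epcam, and unsorted cells were measured beside them. The sources used here do not give strain, age, the number of animals or any pooling. No label states that the replicates are different mice. The spread behind every p-value is therefore that between arrays and may be technical.

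Snai2 encodes Slug, a zinc finger repressor of the Snail family that binds E-box sequences and is best known for silencing epithelial junction genes during epithelial-mesenchymal transition (EMT). In the mammary gland Slug is studied mainly in basal epithelial cells. The stroma around the epithelium holds fibroblasts that make collagen and growth factors, together with vessels, nerves, fat and immune cells.

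The labels could be checked only in part. Snai2 and Epcam had 0 probes under their symbol or a matched synonym. Neither the genotype nor the Epcam gate was therefore checked by its own transcript. The stromal label was checked against 25 fibroblast matrix and identity genes, all detected on all 6 stromal arrays (detection p below 0.05). Their mean log2 intensity was 10.5 ± 0.12 in WT stromal and 10.6 ± 0.06 in null stromal cells, against 7.61 ± 0.14 in WT basal and 7.06 ± 0.09 in WT luminal cells (SD, n = 3). Epithelial transcripts were nevertheless present: Cdh1, the gene of E-cadherin, was at 10.07 ± 0.38 in WT stromal and 10.06 ± 0.24 in null stromal cells, below the 11.77 ± 0.09 of WT luminal cells. Between 12634 and 14727 of 25697 probes were detected per stromal array.

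Of 12549 genes, 3 passed an adjusted p below 0.05 in stromal cells, which is 0.0239% (limma, Benjamini-Hochberg adjustment over all genes tested). Kcnn1 and Dhtkd1 were lower in null cells (2 genes, 0.0159%) and Bmp8a was higher (1 gene, 0.00797%). The 3 genes have different roles: Kcnn1 encodes a calcium-activated potassium channel of small conductance, Dhtkd1 a mitochondrial enzyme of lysine breakdown, and Bmp8a a secreted ligand of the bone morphogenetic protein (BMP) family.

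Because Slug binds the E-box CAGGTG, the promoter windows of the 3 genes are shown. Each is 300 bases long, most of them before an annotated start, and Kcnn1 has 2 starts. They come from RefSeq (GRCm38.p6), read on the minus strand of the genome, 5′ to 3′, with capitals marking the E-box.
Kcnn1 start 1, chr8:70863209-70863508: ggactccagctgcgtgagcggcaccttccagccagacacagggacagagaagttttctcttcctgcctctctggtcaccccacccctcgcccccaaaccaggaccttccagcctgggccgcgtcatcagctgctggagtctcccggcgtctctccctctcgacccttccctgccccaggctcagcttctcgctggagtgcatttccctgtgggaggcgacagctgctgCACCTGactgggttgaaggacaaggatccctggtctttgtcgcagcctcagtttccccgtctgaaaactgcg
Kcnn1 start 2, chr8:70856959-70857258: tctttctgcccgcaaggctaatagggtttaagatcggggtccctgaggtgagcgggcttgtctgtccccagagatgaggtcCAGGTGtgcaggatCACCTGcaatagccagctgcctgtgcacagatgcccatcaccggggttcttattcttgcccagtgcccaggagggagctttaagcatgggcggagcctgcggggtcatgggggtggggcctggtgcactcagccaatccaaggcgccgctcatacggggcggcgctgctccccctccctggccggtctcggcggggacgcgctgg
Dhtkd1, chr2:5942743-5943042: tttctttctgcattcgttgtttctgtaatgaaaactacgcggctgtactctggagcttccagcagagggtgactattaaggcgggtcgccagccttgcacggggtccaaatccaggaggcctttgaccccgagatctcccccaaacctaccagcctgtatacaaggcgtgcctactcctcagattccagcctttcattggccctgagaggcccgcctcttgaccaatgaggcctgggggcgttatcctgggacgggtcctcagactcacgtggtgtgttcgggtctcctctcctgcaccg
Bmp8a, chr4:123343203-123343502: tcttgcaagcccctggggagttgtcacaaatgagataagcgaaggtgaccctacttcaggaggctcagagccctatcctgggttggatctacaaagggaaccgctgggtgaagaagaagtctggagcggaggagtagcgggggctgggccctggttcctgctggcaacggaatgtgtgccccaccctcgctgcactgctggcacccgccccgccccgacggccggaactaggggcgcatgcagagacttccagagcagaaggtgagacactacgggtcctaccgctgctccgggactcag
The E-box was searched on both strands. Its reverse complement is CACCTG, so a match on either strand counts once. The window of Kcnn1 start 1, on chromosome 8, held 1 E-box that begins 22 bases before the start, and that of start 2 held 2, at 169 and 155 bases before it. The Dhtkd1 window on chromosome 2 and the Bmp8a window on chromosome 4 held 0. Over all RefSeq promoter windows 20.2% held the motif. These matches describe letters and not binding.

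Kcnn1 was the gene with the smallest p. Its log2 intensity was 6.93, 6.83 and 7.48 in WT stromal cells and 4.98, 5.37 and 4.59 in null stromal cells. The highest null array lay well below the lowest WT array. The log2 change was -2.10 ± 0.24 (SE, 95% interval -2.61 to -1.59, adjusted p = 0.000444, n = 3 per group). The probe was detected on all 3 WT arrays and on 2 of the null arrays. Among the sorted WT populations it was detected only in stromal cells, with means of 4.50 ± 0.12 in WT basal and 4.61 ± 0.06 in WT luminal cells (SD, n = 3). In those populations the log2 change in null cells was 0.15 ± 0.24 and 0.39 ± 0.24 (SE). The stromal change differed from the basal one by -2.25 ± 0.35 (adjusted p = 0.00329) and from the luminal one by -2.49 ± 0.35 (adjusted p = 0.00684). Kcnn1 was the only gene of 12549 past the threshold in the luminal difference (0.00797%). With the WT basal and luminal signal at background, a fall could not be seen there. Neither difference therefore shows an effect particular to stromal cells.

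Dhtkd1 is the E1 subunit of the complex that oxidises 2-oxoadipate in lysine and tryptophan breakdown. It stood at 6.50, 5.90 and 6.67 in WT stromal cells and at 5.24, 4.57 and 4.69 in null stromal cells. The groups did not overlap, and WT replicate 2 and null replicate 1 were the nearest arrays between the groups. The log2 change was -1.52 ± 0.21 (SE, 95% interval -1.97 to -1.08, adjusted p = 0.00395). The probe was detected on 1 of the null arrays. Without WT replicate 1 the change was -1.45 and missed the threshold (adjusted p = 0.0553). It was detected on no WT basal or WT luminal array, so a fall could not be seen in those cells. The change in stromal cells differed from that in basal cells by -1.61 ± 0.30 (adjusted p = 0.0241), which does not show an effect particular to stromal cells. In unsorted cells Dhtkd1 had a log2 change of -0.59 ± 0.21 that did not pass (adjusted p = 0.272). Of the other genes of this route, Ogdh, the related 2-oxoglutarate dehydrogenase, had a log2 change of -0.15 ± 0.19, and Gcdh, the next enzyme of the pathway, of -0.39 ± 0.36. Neither passed, and both were looked up after the values were seen.

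Bmp8a was the one gene higher in null cells. It stood at 4.86, 4.56 and 5.62 in WT stromal cells and at 6.54, 6.69 and 6.23 in null stromal cells. WT replicate 3 was the nearest to the null arrays, and the groups did not overlap. The log2 change was 1.47 ± 0.22 (SE, 95% interval 1.01 to 1.93, adjusted p = 0.00648). It was detected on all 3 null stromal arrays and on 2 WT stromal arrays. In the other populations its group means lay between 4.38 and 4.65. Bmp8a passed in 14 of 21 settings. Among the others were the fits without WT replicate 1 (1.39, adjusted p = 0.0858), without WT replicate 2 (1.25, adjusted p = 0.0671) and under median scaling (1.45, adjusted p = 0.359). Its difference from the basal change was 1.42 ± 0.31 and did not pass (adjusted p = 0.0867). Bmp8b is a near-identical gene, and whether the probe tells them apart was not tested.

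**Figure D1:**
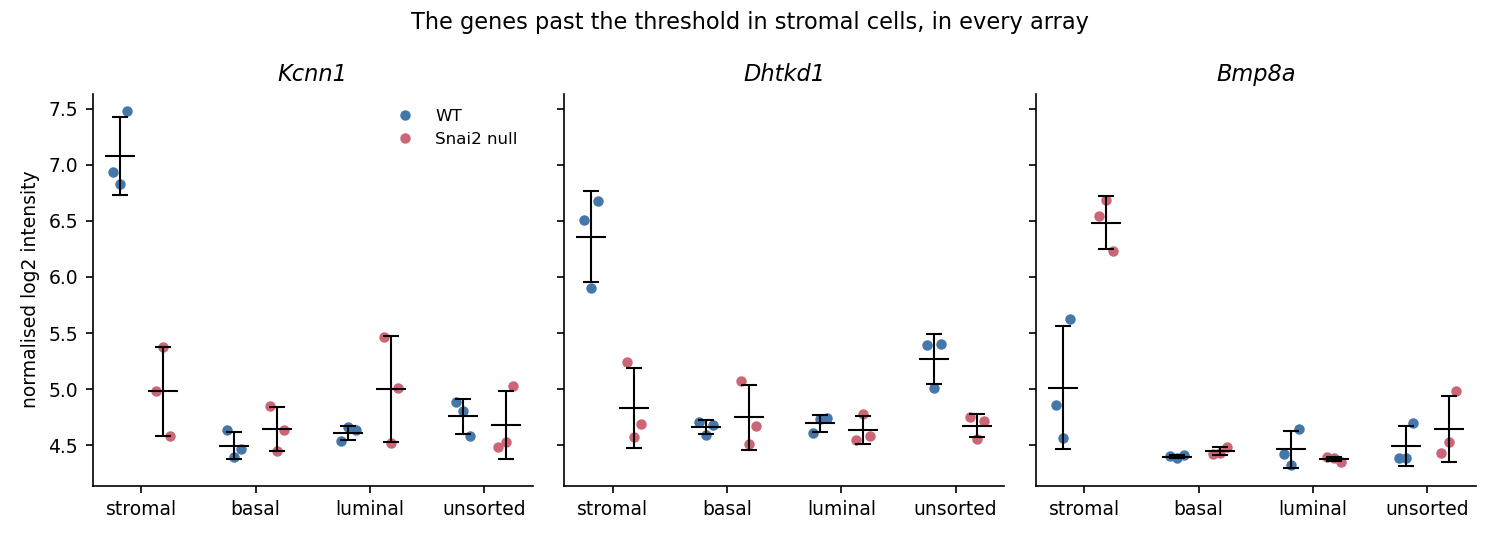
Normalised log2 intensity of Kcnn1, Dhtkd1 and Bmp8a in each of the 24 arrays, by cell population and genotype. Points are arrays and bars are the mean ± SD of 3. The WT stromal arrays stand apart for Kcnn1 and Dhtkd1, and the null stromal arrays for Bmp8a.

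The sizes of these 3 changes depend on the background model. Without background correction they were -0.94, -0.59 and 0.59 for Kcnn1, Dhtkd1 and Bmp8a, and the calls were kept (adjusted p = 0.000647, 0.0189 and 0.0284). The arrays fall into a split on the third principal component that no label gives, with WT replicates 1 and 2 and null replicate 1 on one side. Within that side the changes were -1.90, -0.96 and 1.83 in the same order, and within the other side -2.50, -2.04 and 0.83. All 3 keep their direction on both sides, and none passes there, where an arm can hold 1 array that is assumed to vary like the other groups. When the 6 stromal arrays alone were fitted, 0 genes passed by limma, with 333 at an unadjusted p below 0.05. In that fit the SEs of Kcnn1, Dhtkd1 and Bmp8a were 0.287, 0.294 and 0.313, against 0.244, 0.214 and 0.219 with all arrays. Kcnn1 had an adjusted p of 0.836. The SEs and intervals above pool the spread of all groups. The 3 probes were detected on no WT basal or WT luminal array, where their SDs were 0.012 to 0.164. Their SDs were 0.35, 0.41 and 0.55 in WT stromal and 0.39, 0.36 and 0.23 in null stromal cells. The stromal spread may therefore be understated.

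Below these 3, the next 17 genes by p did not pass. Of them 5 were higher and 12 lower in null cells, and all 17 had arrays that did not overlap between the groups. They were picked by p in the same comparison, so nothing is read from that count. Over all 12549 genes 6.98% had such arrays, 421 higher (3.35%) and 455 lower (3.63%), and 4.45% had an unadjusted p below 0.05.

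Flt1 encodes a receptor of vascular endothelial growth factors. It stood at 6.01, 6.72 and 6.11 in WT stromal cells and at 4.44, 4.58 and 4.83 in null stromal cells. The null arrays were all lower and 1 of them detected the probe. The log2 change was -1.67 ± 0.31 (adjusted p = 0.0901), and in basal cells -1.45 ± 0.31, where it passed (adjusted p = 0.0264). A second passing probe of Flt1 was detected on 0 of the 6 stromal arrays and had a change of 0.02. In bulk samples fewer cells of a type and less RNA per cell cannot be told apart.

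P2ry6, a receptor for UDP, had the largest change of the 17, -2.73 ± 0.59 (adjusted p = 0.223). The WT arrays of P2ry6 read 7.59, 8.34 and 8.43, and the null arrays 4.57, 4.40 and 7.20. Null replicate 3 stood near the WT arrays, far from the other null arrays. Without it the change was -3.63 and passed (adjusted p = 0.00263). Abcb9, a peptide transporter of lysosomes, had a change of -1.78 ± 0.40 and a second probe of -1.51 ± 0.43. Zfp64, a zinc finger gene, had a change of -1.82 ± 0.44, with -1.68 ± 0.39 and -0.21 ± 0.23 in its other probes. Iqce, a protein of cilia that acts in Hedgehog signalling, had a change of -1.60 ± 0.38.

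Smaller negative differences were those of Mmp27, a matrix metalloproteinase (-0.74 ± 0.14, adjusted p = 0.0926), and S100b, a calcium-binding protein of glial cells (-0.80 ± 0.17, adjusted p = 0.185). The rest of the lower genes were Evi5l, Pcid2, 9130401M01Rik, Ano2 and Enox1. Among the higher ones, Arsi, a member of the sulfatase family, had a change of 0.92 ± 0.18 (adjusted p = 0.0926) and a second probe of 0.72 ± 0.17. Hoxa2, a homeobox transcription factor, was not detected on any WT stromal array, so its difference is at least 1.36-fold (adjusted p = 0.141). Ugt3a2, a glycosyltransferase, and S1pr3, a receptor for sphingosine-1-phosphate, had changes of 1.37 ± 0.30 and 1.22 ± 0.29.

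**Figure D2:**
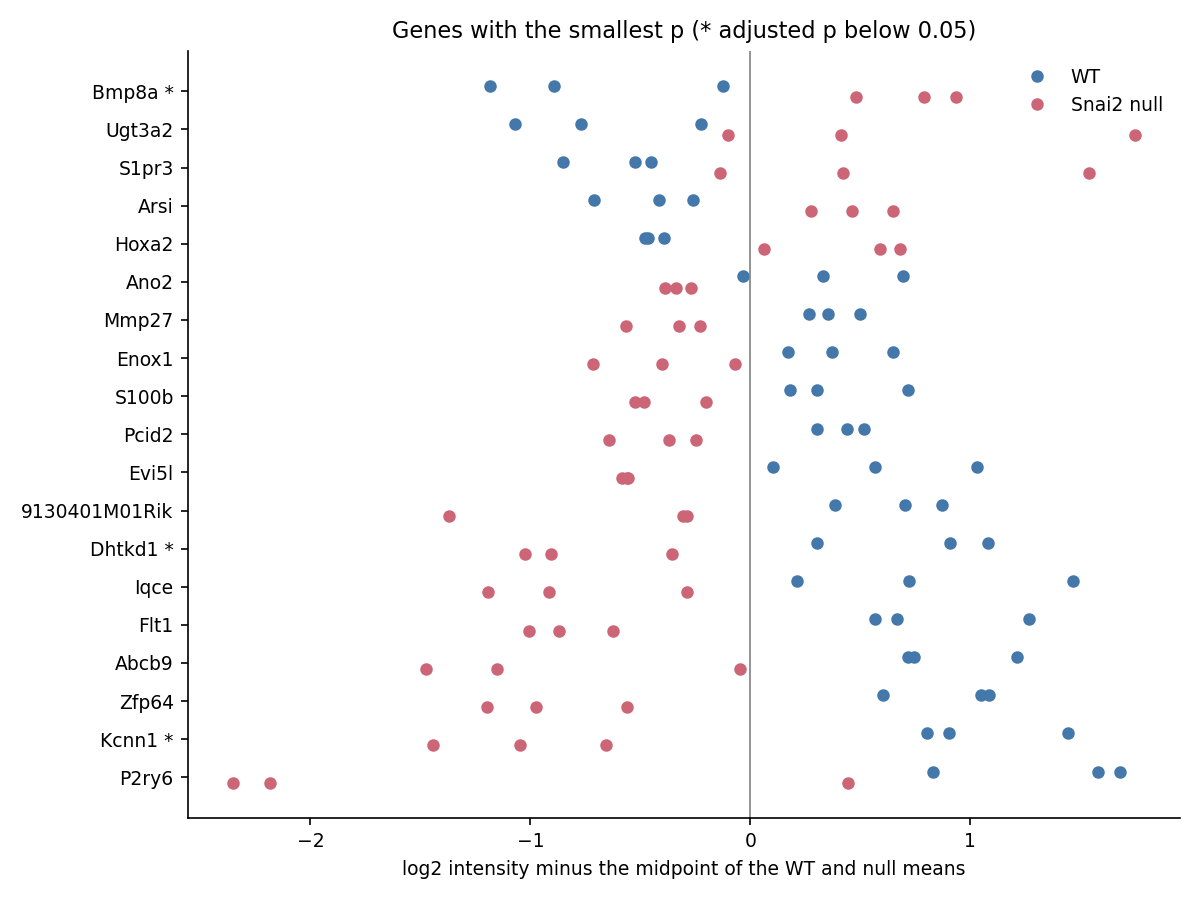
Of the 20 genes with the smallest p, 19 are shown, ordered by log2 change. Each point is 1 stromal array, given as log2 intensity minus the midpoint of the WT and null means. The 3 genes marked with an asterisk passed, and P2ry6 shows 1 null array beside the WT arrays.

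None of the listed genes that make the stroma passed between genotypes, which does not show that their levels are equal. Of 37 gene lists that cover fibroblasts, other cell types and pathways, 0 had a member past the threshold by limma. Of the 622 genes in them 28 had an unadjusted p below 0.05. Over all genes tested 0.0239% passed and 4.45% had an unadjusted p below 0.05. With so few calls in all, 0 calls in a list, here and below, says little about that list. The median log2 change over all genes was -0.01, and 47.9% of genes were above 0. For 8163 genes, 65% of those tested, the 95% interval of the change lay within 2-fold in either direction. That share is over all genes tested and was not taken for the stromal lists. It includes genes near background, where a change can go unseen. Of the genes tested, 7671 were detected on every stromal array and 723 on none of them. The intervals also use the spread pooled over all groups. The share therefore does not show that most stromal levels are equal between genotypes.

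The 25 fibroblast matrix and identity genes had a median log2 change of 0.14, with 18 of 25 above 0 and 0 past the threshold. Under median scaling 14 of 25 were above 0, with a median of 0.03. That scaling also lowered the median over all genes, from -0.01 to -0.06, with 5307 of 12549 above 0. The same shift lies under the values given for other lists with that scaling. Within the negative and positive sides of the unlabelled split 20 and 16 of the 25 were above 0, with medians of 0.09 and 0.18. Sparc, a collagen-binding matrix protein, stood at 11.93, 11.57 and 12.03 in WT and at 12.30, 12.15 and 12.15 in null cells. Its null arrays were all higher than its WT arrays, by a log2 change of 0.36 ± 0.25 that did not pass (adjusted p = 1.00). Postn, the matrix protein periostin, had the largest difference of the list, 0.66 ± 0.39, from 8.35, 7.41 and 8.19 in WT to 8.25, 9.29 and 8.40 in null cells. The groups overlapped for Postn. The collagen genes Col1a1, Col1a2 and Col3a1 had changes of 0.29 ± 0.34, 0.30 ± 0.37 and 0.18 ± 0.36.

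Fibroblasts feed the epithelium through growth factors. Of 33 secreted growth factor genes 24 were above 0, with a median of 0.12 and 0 past the threshold. Under median scaling 19 of 33 were above 0 with a median of 0.04, and within each side of the unlabelled split 15 of 33, with medians of -0.01 and -0.04. Leaving out 1 array gave medians of 0.04 to 0.22, with 18 to 22 above 0. Igf1, a growth factor of the mammary stroma, stood at 10.46, 9.90 and 10.37 in WT and at 10.78, 10.46 and 10.54 in null cells, a change of 0.35 ± 0.52. The lowest null array of Igf1 was level with the highest WT array at this rounding. Wnt2, a Wnt ligand, had a change of -0.48 ± 0.38, and Hgf, the ligand of the Met receptor, of 0.22 ± 0.43. Among 19 BMP and activin pathway genes, a list that does not hold Bmp8a, 12 were above 0 with a median of 0.16 and 0 past the threshold, and leaving out 1 array gave medians of 0.03 to 0.15. The BMP target genes Id1, Id2 and Id3 had changes of 0.16 ± 0.34, 0.21 ± 0.32 and -0.12 ± 0.18.

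Signals between stroma, epithelium and immune cells gave 16 of 29 cytokine and chemokine genes above 0, with a median of 0.08 that was -0.04 to 0.15 with 1 array left out. Cxcl10, a chemokine that draws T cells, stood at 6.77, 7.47 and 7.19 in WT and at 7.96, 8.13 and 8.25 in null cells. Every null array of Cxcl10 was higher, by 0.97 ± 0.42, and the difference did not pass (adjusted p = 1.00). Cxcl14, a chemokine of fibroblasts, ran the other way, from 9.57, 9.70 and 9.73 in WT to 9.22, 8.91 and 9.15 in null cells. Its change was -0.58 ± 0.29 without overlap (adjusted p = 1.00). Neither is read as a change of its group. Of 24 matrix proteases and their inhibitors 14 were above 0 with a median of 0.04, led by Mmp19, a metalloproteinase, at 0.67 ± 0.30. Complement genes, which fibroblasts express, had 11 of 14 above 0 and a median of 0.14, which was 0.07 without null replicate 3 and 0.08 without WT replicate 2.

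For fibroblast subtypes 2 further lists of marker genes were read in the bulk stromal arrays, which cannot separate the subtypes. Adventitial fibroblast genes had 9 of 13 above 0 and a median of 0.09, which was -0.04 under median scaling. Interstitial fibroblast genes had 5 of 12 above 0 and a median of -0.12, which was 0.03 without null replicate 3. Ribosomal protein genes had 19 of 23 above 0 and a median of 0.15, which was 0.03 without WT replicate 2, and oxidative phosphorylation genes 17 of 33 and 0.03. The Wnt pathway list had 14 of 23 above 0 and a median of 0.09, the TGF-beta response list 10 of 19 and a median of 0.00, and the interferon response list 9 of 17 and a median of 0.01. In the interferon list, Cxcl10 and Usp18, a protease that removes ISG15, had changes of opposite sign, 0.97 ± 0.42 and -1.01 ± 0.42. None of these lists had a member past the threshold.

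The other pathway lists also had 0 members past it. Notch genes had 8 of 15 above 0, Hedgehog genes 4 of 8 and cell cycle genes 10 of 16, with medians of 0.01, 0.00 and 0.05. Stress lists had 8 of 22 above 0 for immediate early and heat shock genes, 8 of 18 for hypoxia and glycolysis, 10 of 17 for the unfolded protein response and 7 of 18 for the p53 response, with medians between -0.06 and 0.06. Immediate early genes respond to tissue dissociation, and their level was close in the genotypes, with a mean of 9.66 to 10.2 in WT and 9.85 to 10.1 in null arrays. Cholesterol synthesis had 8 of 16, steroid receptor and adipogenic factors 6 of 17 and the Bex family 2 of 9, with medians of 0.00, -0.10 and -0.26.

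The relatives and partners of Slug in EMT did not pass either. Of 16 EMT genes measured, 10 were above 0 and the median was 0.04. Under median scaling it was -0.08, with 5 of 16 above 0, and leaving out 1 array gave -0.07 to 0.13. Snai1, the closest relative of Slug, stood at 5.53, 5.60 and 6.98 in WT and at 5.84, 6.22 and 5.81 in null cells. WT replicate 3 was the high one, and the groups overlapped, with a change of -0.08 ± 0.34 (95% interval -0.79 to 0.64). The transcription factors Zeb2, Twist1 and Prrx1 had changes of 0.03 ± 0.42, -0.08 ± 0.34 and 0.10 ± 0.50. Vim, the intermediate filament of mesenchymal cells, stood at 10.37, 9.24 and 10.31 in WT and at 10.42, 10.40 and 10.38 in null cells. Only WT replicate 2 lay apart for Vim, the null arrays sat just above the other WT arrays, and the change was 0.43 ± 0.39. Of 25 epithelial genes known as targets of Snail factors 0 passed, 9 were above 0 and the median was -0.08. Leaving out 1 array gave medians of -0.20 to 0.08, the highest without WT replicate 2, with 15 of 25 above 0. Muc1, a mucin of the apical membrane, had the smallest p of these, at -0.94 ± 0.23 (adjusted p = 0.291).

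Genes beside the Snai2 locus on chromosome 16 were looked at as well. Of the 10 measured genes nearest to it, 5 on each side, 0 passed and 1, Prkdc, a DNA repair kinase, had an unadjusted p below 0.05. Prkdc stood at 4.83, 4.58 and 4.68 in WT and at 5.51, 4.96 and 5.76 in null cells, a change of 0.71 ± 0.27 (adjusted p = 0.994).

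**Figure D3:**
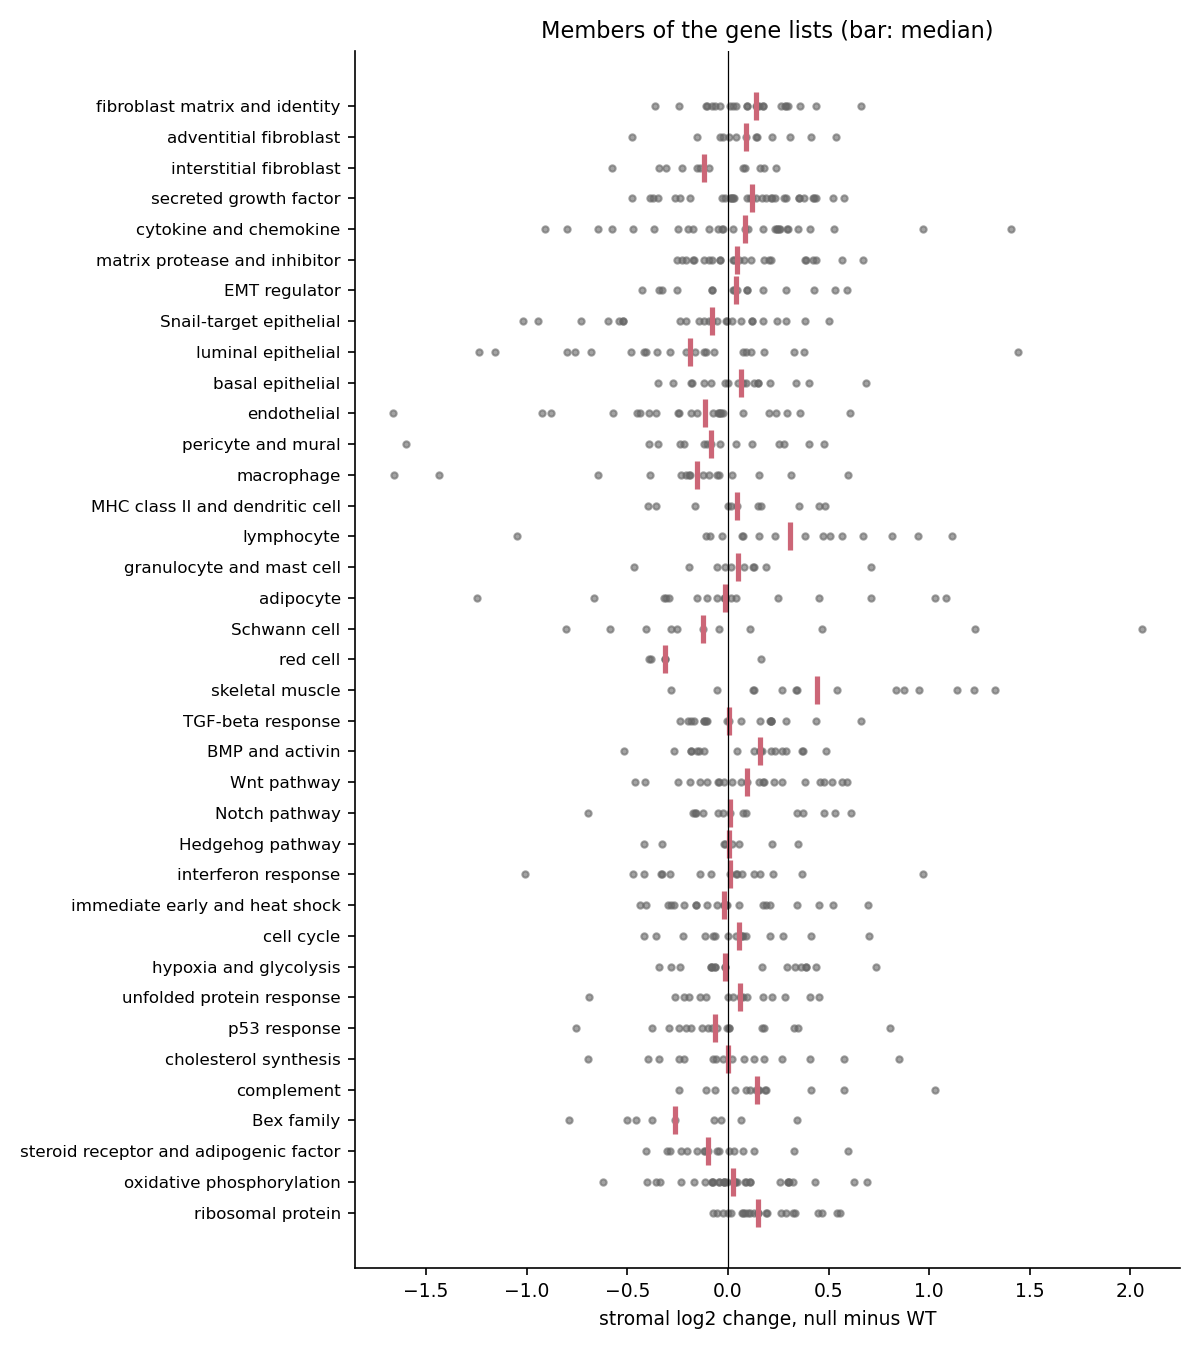
Log2 change in null against WT stromal cells for the measured members of each gene list that has at least 5. Points are genes and bars are list medians, which lie between -0.31 and 0.44 with no member past the threshold.

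Markers of other cells varied between arrays of the same group. Skeletal muscle genes had the highest list median, 0.44, with 12 of 14 above 0. Their mean level was 6.71, 6.32 and 4.92 in WT and 7.57, 5.84 and 6.19 in null stromal cells. Null replicate 1 was highest for 11 of the 14 genes and WT replicate 3 lowest for 10. Without WT replicate 3 the median was -0.06, and without null replicate 1 it was 0.01, with 7 of 14 above 0 each time. Without each of the other arrays it was 0.68 to 1.06, and within the negative and positive sides of the unlabelled split 1.11 and 1.23, with 12 of 14 above 0. With that split as a block within each population it was 1.18, and Tnnc2, a troponin of fast muscle, passed.

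Endothelial genes showed 6 of 24 above 0 and a median of -0.11. WT replicate 2 was highest for 16 of these 24 genes, and without it 16 of 24 were above 0 and the median was 0.17. Without each of the other arrays the endothelial median was -0.41 to -0.05, and within the negative and positive sides of the split it was 0.30 and -0.23. Their mean level was 5.65 to 6.77 in WT and 5.76 to 6.19 in null arrays. Macrophage genes had 4 of 16 above 0 and a median of -0.15, which became 10 of 16 and 0.05 without the same array. Csf1r and Adgre1, which define macrophages, stood between 4.36 and 4.98 on all stromal arrays but one, Adgre1 in WT replicate 2 at 6.60. Lymphocyte genes had 12 of 16 above 0 and a median of 0.31, with null replicate 1 highest for 10 of the 16. Without that array the median was 0.07, with 10 of 16 above 0, and without WT replicate 3 it was 0.15. Without null replicate 3 it was 0.46, and Cd79b, a B cell receptor subunit, passed (1.71 ± 0.22, adjusted p = 0.00263). The part of these cells in the 3 calls was not tested. Kcnn1 passed without WT replicate 2, WT replicate 3 or null replicate 1 (-2.22, -1.90 and -2.10), and so did Dhtkd1 (-1.75, -1.37 and -1.73). Bmp8a passed without WT replicate 3 or null replicate 1 (1.77 and 1.44). It missed the threshold without WT replicate 2 (1.25, adjusted p = 0.0671). Without WT replicate 1, Bmp8a (1.39, adjusted p = 0.0858) and Dhtkd1 (-1.45, adjusted p = 0.0553) also missed it by limma. A call kept or lost when 1 array is left out does not bear on the part of these cells.

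Luminal epithelial genes had 7 of 22 above 0 and a median of -0.19, with a mean level of 7.06, 7.62 and 6.09 in WT and 6.85, 6.41 and 6.88 in null arrays. Without WT replicate 2 the luminal median was 0.02 with 11 of 22 above 0, without WT replicate 3 it was -0.57, and without null replicate 2 it was -0.06. Within the negative side of the split it was 0.48 with 18 of 22 above 0, and within the positive side -0.32 with 4 of 22. Ltf, the milk protein lactoferrin, and Csn2, a casein, had changes of opposite sign, -1.24 ± 0.44 and 1.44 ± 1.13. Basal epithelial genes had 10 of 18 above 0 and a median of 0.06, and pericyte and mural genes 6 of 15 and -0.08. Adipocyte genes had 7 of 18 above 0 and a median of -0.02. Adipoq, the hormone adiponectin of fat cells, was not detected on any WT array and stood at 4.65, 6.93 and 5.54 in null cells. Null replicate 2 was the high array for Adipoq, and the difference, at least 1.75-fold, did not pass (adjusted p = 0.93). Red cell genes had 1 of 5 above 0, MHC class II and dendritic cell genes 7 of 11, and granulocyte and mast cell genes 6 of 10, with medians of -0.31, 0.04 and 0.05. None of these members passed.

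Of 11 Schwann cell genes 4 were above 0, with a median of -0.12 and 0 past the threshold. Without null replicate 1 the Schwann cell median was 0.16, with 6 of 11 above 0 and 1 past the threshold. With the unlabelled split as a block within each population it was -0.23, also with 1 past the threshold. Mbp, the myelin basic protein, had a change of -0.58 ± 0.46 with overlapping groups (adjusted p = 1.00). Mbp does not stand for the list, and not all members are reported here.

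**Figure D4:**
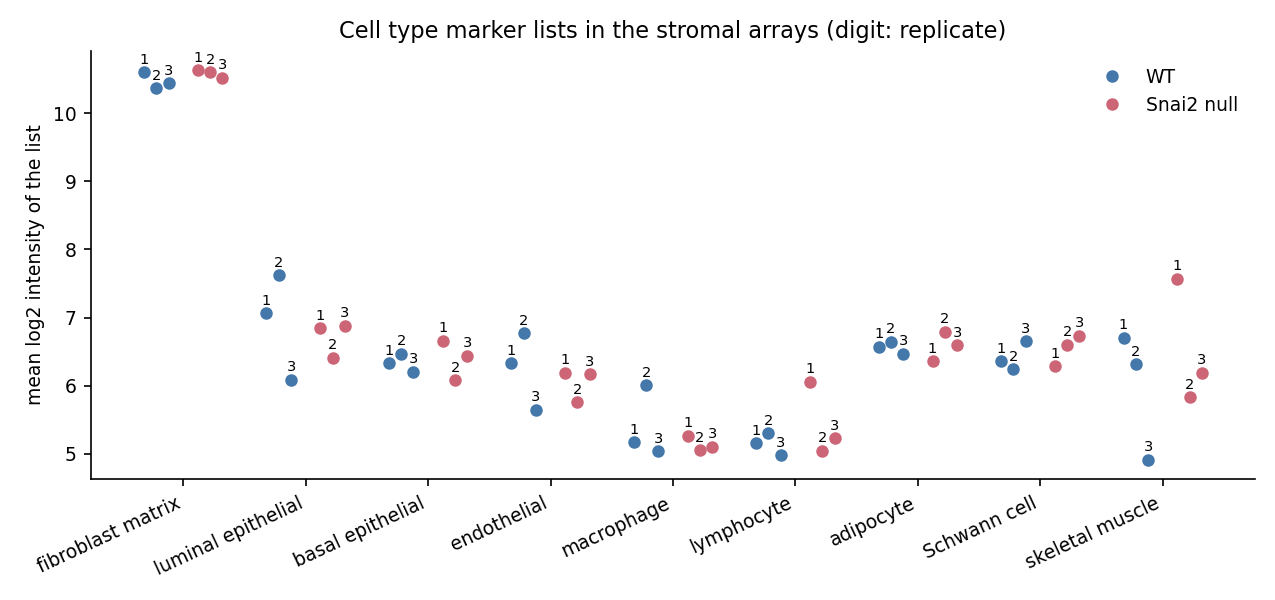
Mean log2 intensity of cell type marker lists in the 6 stromal arrays, with the replicate number above each point. WT replicate 2 is highest for the endothelial and macrophage lists, and null replicate 1 for the lymphocyte and skeletal muscle lists.

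The stromal changes were then set beside those in basal cells, where 105 genes passed (0.837%). The populations share no array. Of the 56 genes higher in null basal cells (0.446%), with a median log2 change of 1.58 there, 33 were above 0 in stromal cells, 0 passed and their stromal median was 0.07. Of the 49 lower in null basal cells (0.39%), with a median of -1.77, 26 were below 0 in stromal cells, 0 passed and the stromal median was -0.01. A call in one population and not in another does not show a difference, so the difference of the changes was tested for each gene. It passed for 20 of 12549 genes (0.159%), 5 with a higher (0.0398%) and 15 with a lower (0.12%) change in stromal cells, and 17 of the 105 were among them. Kcnn1 and Dhtkd1 were among the other 3.

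Bex1 and Bex4, small proteins of the brain-expressed X-linked family, differed most. Bex4 stood at 4.52, 5.15 and 4.37 in WT stromal and at 4.47, 4.33 and 4.44 in null stromal cells, detected on 1 of the 6 arrays. In basal cells it was not detected in WT and was at least 17-fold higher in null cells (9.22, 8.70 and 9.07, adjusted p = 7.45e-09). Bex1 was detected on all 6 stromal arrays, at 6.73, 7.51 and 6.35 in WT and 6.81, 5.44 and 6.83 in null cells. The Bex1 groups overlapped, with a change of -0.50 ± 0.37 against 3.90 ± 0.37 in basal cells.

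Cldn7, a tight junction claudin, also differed. It stood at 7.15, 8.11 and 6.53 in WT and at 7.50, 7.56 and 7.24 in null stromal cells, a change of 0.17 ± 0.30 against 2.89 ± 0.30 in basal cells (difference -2.72 ± 0.42, adjusted p = 0.00329). Cygb, a globin of fibroblasts and related cells, was lower in null basal cells. It was at 10.25, 9.59 and 10.14 in WT and 10.17, 9.89 and 9.94 in null stromal cells, a change of 0.00 ± 0.40, and had -2.88 ± 0.40 in basal cells (difference 2.89 ± 0.57, adjusted p = 0.0357). The 25 fibroblast matrix and identity genes were also lower in basal cells, with a mean of 7.61 ± 0.14 in WT and 6.89 ± 0.20 in null (SD, n = 3). The part of this in the Cygb difference was not tested.

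**Figure D5:**
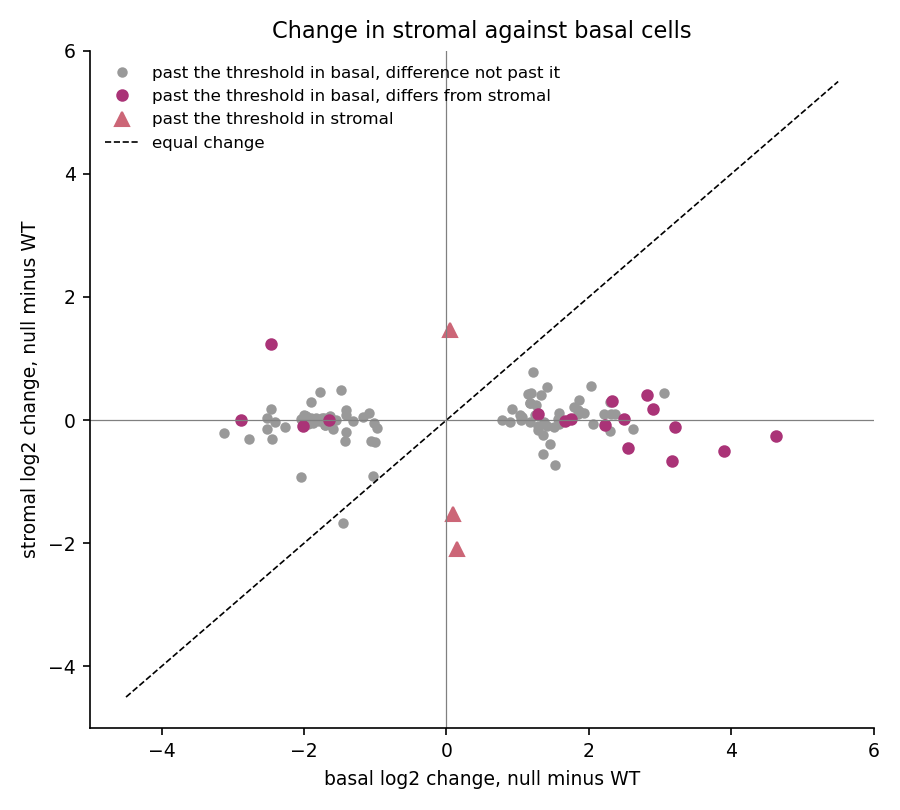
Log2 change in null against WT cells for the 105 genes past the threshold in basal cells and the 3 past it in stromal cells, basal on the x axis and stromal on the y axis. Most basal genes lie along a stromal change of 0, and the 3 stromal genes along a basal change of 0.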

How the data were processed

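Total RNA was measured on 24 Illumina bead arrays, of which 6 are stromal. The authors deposited linear intensity values per probe, which differ in scale between arrays as raw signals do. Every intensity has a deposited detection p-value in the next column, per the file headers. A second deposited table of normalized intensities served as an alternative only. Scanner software and export steps are not stated in the sources.

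Background was modelled from the detection p-values and arrays were quantile normalized with neqc of limma 3.58.1 (R 4.3.3, offset 16), which gives log2 intensity. Probes detected at p below 0.05 on at least 3 arrays were kept, 17878 of 25697. Symbols were updated through a RefSeq table: 20733 probes held a current symbol, 3868 matched a synonym, 1060 matched none and kept their name, and 36 turned into dates or numbers were left out. Each gene was taken from its brightest passing probe, 12549 in all, 3526 of them with other passing probes. The model had a mean for each of the 8 groups over 24 arrays (lmFit, eBayes, two-sided), with Benjamini-Hochberg adjustment within each comparison. The comparisons were null against WT in stromal cells, and its difference from the basal and the luminal change. SE is that of the fit. The number of arrays limits the precision, with a median SE of 0.301. A probe seen on no array of its dimmer group has a lower bound of its fold instead. The bound sets the mean of the brighter group against a floor, which on each array is the lowest detected signal or, if larger, the value of the probe itself.

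Named genes are those past the threshold, the smallest p up to 20, the 2 largest changes per list, EMT genes, the 5 measured genes on each side of Snai2, and the largest changes in basal and luminal cells and the largest differences from basal cells. The comparison and the 37 lists were chosen with earlier results of these data known. Further members of the lists, and genes looked up later, are examples chosen after their values were seen. The test was tried on simulated data. Results for 2 genes are not reported here. Alternatives changed 1 choice at a time: replicate block, arrays in the fit, normalization, background, table, filters, probes, weights, variance prior, the unlabelled split and each stromal array left out. Whether replicate numbers pair the stromal arrays is not known. Deviations of same-numbered arrays from their group means correlated at 0.23, -0.183 and 0.27, and those of differently numbered arrays at -0.468 to 0.303. With 3 arrays per group this check cannot exclude pairing.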

Additional observations from a re-analysis of the deposited data

Results flagged for a closer look

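A test of the difference between populations picked out genes, among them the following, with values given as the stromal minus the basal log2 change (null minus WT) and its SE in limma. The stromal change was lower for Bex4 (-4.89 ± 0.41), Bex1 (-4.40 ± 0.53), Nup210, a nuclear pore protein (-3.82 ± 0.71), Pkp2, a desmosome protein (-3.32 ± 0.39), and Ppp1r9a, an actin-binding scaffold (-3.01 ± 0.40). It was also lower for Cldn7 (-2.72 ± 0.42), Il23a, a cytokine subunit (-2.47 ± 0.43), Lcp1, an actin-bundling protein (-2.41 ± 0.39), Kcnn1 (-2.25 ± 0.35) and Dhtkd1 (-1.61 ± 0.30). It was higher for Cygb (2.89 ± 0.57). Against luminal cells the stromal change of Kcnn1 was lower by a log2 difference of -2.49 ± 0.35. Il23a was detected on 0 of the 6 stromal arrays, Bex4 and Lcp1 on 1 and Nup210 on 2, so much of their stromal value is background. Kcnn1 and Dhtkd1 were detected on no WT basal or WT luminal array, so a fall could not be seen in those cells. The other passing probes of Pkp2 had stromal changes of 0.20 and 0.58, against -0.12 for the probe used.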

How the results depend on the processing

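The stromal count of 3 genes became 0 with only the 6 stromal arrays in the fit (333 at an unadjusted p below 0.05), 9 with no filter on dim probes, 7 with a trended robust variance prior, 0 within each side of the unlabelled split (802 and 709 genes at an unadjusted p below 0.05), and 6 with that split as a block within each population, an alternative chosen after seeing the data. Leaving out 1 stromal array gave 1 to 8 genes: 1 without WT replicate 1, 6 without WT replicate 3, and 5, 7 and 8 without null replicates 1, 2 and 3. Kcnn1 passed in 18 of 21 settings, Dhtkd1 in 17 and Bmp8a in 14. Bmp8a missed the threshold without WT replicate 1 or 2 (1.39 and 1.25), under median scaling (1.45, adjusted p = 0.359) and with the replicate block (1.47, adjusted p = 0.235). Dhtkd1 missed it without WT replicate 1 (-1.45). The count of 20 differences from basal cells became 12 with only the arrays compared, 8 under median scaling, 7 with the filter set on stromal arrays, 53 with array weights, and 0 and 1 within the negative and positive sides of the split. It was 13 to 27 with 1 stromal array left out, 13 without null replicate 2. The 1 difference from luminal cells became 0 with the replicate block, with only the arrays compared and within each side of the split, 3 with array weights, and 1 to 2 with 1 array left out, 2 without WT replicate 3. The cause of these moves was not tested, and some of the fits held fewer arrays. With the replicate block, which pairs arrays by number although the check gave no ground for pairing, 2 stromal genes passed, Kcnn1 and Dhtkd1. No result past the threshold in either setting changed direction. Signal near background limits what can be seen: 723 genes were detected on none of the 6 stromal arrays.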
